A study of Rattus norvegicus with 6 samples.

Results

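Probes of 10 genes of gluconeogenesis and the fasting response were examined in rat liver: Pck1, G6pc1, Fbp1, Pc, Slc37a4, Pdk2, Pdk4, Ppargc1a, Foxo1 and Fgf21. The genes were a fixed list, and every probe whose accession belonged to one of them was used, which gave 10 of the 15284 named genes and 15 of the 61573 probes on the array. Pck1, G6pc1, Fbp1, Pc and Slc37a4 each had 2 probes and the other 5 genes had 1. Livers of 6 male Sprague-Dawley (Crl:CD(SD)) rats were compared on Agilent arrays read in 1 colour, each animal on its own array. One group (n = 3) received BBMP at 1000 mg/kg/day; BBMP is 2,2-bis(bromomethyl)-1,3-propanediol, a compound used to make plastics resist fire. The controls (n = 3) received corn oil, the vehicle. All rats were 5 weeks old at purchase and ate a basal diet. The labels give the length of treatment as 28 days in the design text and as 9 weeks in the treatment protocol. Whether food was withdrawn before the livers were taken, and at what time of day they were taken, is not given in the sources used here, and these genes respond to both.

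Gluconeogenesis makes glucose from lactate, amino acids and glycerol, and in the liver it holds up blood glucose between meals. Pyruvate carboxylase (Pc) and phosphoenolpyruvate carboxykinase (Pck1) carry carbon from pyruvate to phosphoenolpyruvate, fructose bisphosphatase (Fbp1) reverses a glycolytic step, and the glucose-6-phosphate transporter (Slc37a4) and glucose-6-phosphatase (G6pc1) release free glucose from the endoplasmic reticulum. Pyruvate dehydrogenase kinases (Pdk2, Pdk4) shut the route from pyruvate to acetyl-CoA and so spare it for glucose. Glucagon through cyclic AMP, glucocorticoids and the forkhead factor Foxo1 raise transcription of these genes, with Ppargc1a as a coactivator, while insulin opposes them. Fgf21 is a hormone that the liver secretes in fasting and other metabolic stress.

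The promoters of 3 members are shown, because the cyclic AMP response element is the classical link between glucagon and this gene set and because Pdk4 had the largest difference between the groups. They are RefSeq sequences on the GRCr8 assembly, from 250 bases before to 50 bases after the annotated start. Capitals mark a match to any of the 5 motifs searched on both strands. Pck1 is at chr3:182348322-182348621 (plus strand), Ppargc1a at chr14:63634058-63634357 (plus strand) and Pdk4 at chr4:34568280-34568579 (minus strand). The array's own annotation is on rn4, and no coordinates were taken from it.
Pck1: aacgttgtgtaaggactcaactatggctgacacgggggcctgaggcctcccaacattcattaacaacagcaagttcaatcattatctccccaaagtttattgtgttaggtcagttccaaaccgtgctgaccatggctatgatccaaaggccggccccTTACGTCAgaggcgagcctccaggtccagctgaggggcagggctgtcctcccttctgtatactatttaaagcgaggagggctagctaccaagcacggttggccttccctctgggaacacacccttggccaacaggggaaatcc
Ppargc1a: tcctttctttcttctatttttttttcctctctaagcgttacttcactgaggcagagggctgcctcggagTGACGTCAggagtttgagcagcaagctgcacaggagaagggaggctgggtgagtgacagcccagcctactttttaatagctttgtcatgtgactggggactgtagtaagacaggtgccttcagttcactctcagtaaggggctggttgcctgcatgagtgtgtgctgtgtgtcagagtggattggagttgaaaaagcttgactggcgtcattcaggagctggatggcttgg
Pdk4: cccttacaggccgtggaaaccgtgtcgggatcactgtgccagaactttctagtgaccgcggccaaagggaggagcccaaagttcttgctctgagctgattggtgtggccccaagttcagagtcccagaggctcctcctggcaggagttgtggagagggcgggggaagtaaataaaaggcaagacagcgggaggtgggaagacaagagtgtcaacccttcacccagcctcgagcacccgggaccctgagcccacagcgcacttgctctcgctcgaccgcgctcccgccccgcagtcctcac

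The Pck1 window held the variant element TTACGTCA with its first base at -93 from the annotated start, and the Ppargc1a window held the full element TGACGTCA at -181. Of 33469 rat promoter windows of the same length, 0.807% held TTACGTCA and 1.83% held TGACGTCA. The forkhead motif GTAAACA (3.78% of windows) and the HNF4 motif CAAAGTCCA (0.391%) were matched in 0 of the 9 members that had a window. The E-box CACGTG (6.42%) was matched in Fgf21 and Pdk2, and Pdk4 matched none of the 5. A match describes letters only, and its absence says only that these letters are not in the window.

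Signals are given as relative signal, the probe's processed signal divided by its array's 75th percentile, so 1 is the brightness at that percentile, and relative signals of different probes are not comparable. Differences are on the log2 scale, BBMP minus corn oil, and the error after a difference is its SE. Between 60.1% and 64.4% of 61573 probes were well above background per array, and correlations between arrays lay between 0.986 and 0.992. On the main component of variation BBMP livers lay at -28.7 to -19.1, corn oil 1 and 3 at 9.60 and 14.8, and corn oil 2 farthest out at 50.8. All BBMP arrays came from 1 slide and scan and all corn oil arrays from another. Treatment therefore cannot be told apart from slide or scan in any difference below. The 7 hepatocyte markers (Alb, Ttr and others) were all tested, with 3 higher and 4 lower, and their summed relative signal was 4250 to 4789 in BBMP livers and 4594 to 4927 in corn oil livers. Of 10 lists of cell type markers, summed signals of the groups did not overlap for 1, the stellate cell and fibroblast list: 6 of its 7 genes were lower, with sums of 37.6 to 43.5 in BBMP livers and 45.6 to 50.8 in corn oil livers. All 7 Kupffer cell and macrophage genes were higher, with overlapping sums of 65.7 to 82.7 in BBMP livers and 49.8 to 82.1 in corn oil livers. Neither group had the pancreatic genes Prss1, Cpa1 and Cela1 or the fat cell genes Adipoq and Lep well above background on all its arrays. Cpa1 reached this on 1 corn oil array and the others on 0. Amy2a3 of the pancreatic list was tested, at 0.0397 to 0.0497 in BBMP livers and 0.0394 to 0.0641 in corn oil livers. Cidec of the fat cell list was tested too, at 7.52 to 8.18 in BBMP livers and 6.86 to 8.18 in corn oil livers. Whether these cell types had a part in the results below was not tested, and in whole liver fewer cells of a type and less RNA per cell cannot be told apart.

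No difference between BBMP and corn oil livers passed the threshold for any of these genes. Of the 10 genes, 9 were bright enough to be tested and 0 passed limma's adjusted p of 0.05 over all 28112 features, beside 0.00711% of features (2) that did. At an unadjusted p under 0.05 there were 2 of 9, Pdk4 and Pc, both lower after BBMP, against 10.8% of all features. The same 2 genes were those whose groups did not overlap, against 17.9% of all features in either direction, 9.60% with BBMP lower and 8.25% with BBMP higher. The difference was below 0 for 6 of the 9 genes, where it was below 0 for 52.5% of features. The median difference of the 9 was -0.28 and that of all features -0.013. That a gene missed the threshold is no evidence that it was unaffected, and the interval given with each gene shows which sizes remain possible with 6 arrays.

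**Figure D1:**
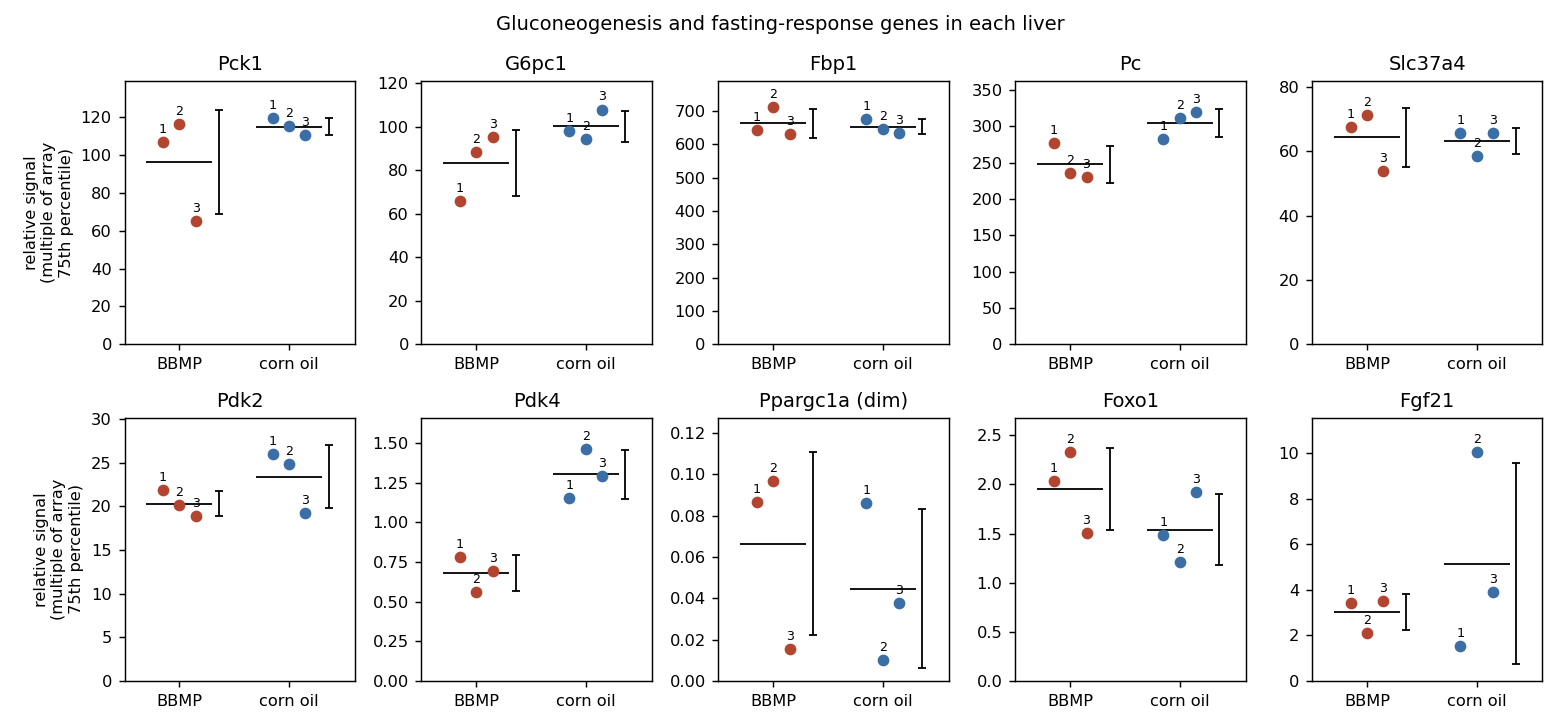
Relative signal (multiple of the array's 75th percentile, linear axis from 0) of the brightest probe of each of the 10 genes in each liver. Points are animals, numbered by replicate, with BBMP in red on the left and corn oil in blue on the right; lines are means and bars are SD (n = 3 each). Pdk4 and Pc are the 2 genes whose groups do not overlap, Pck1 in BBMP 3, G6pc1 in BBMP 1 and Fgf21 in corn oil 2 stand apart from the rest of their groups, and Ppargc1a is dim.

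Pdk4 (probe A_44_P231269), the kinase that fasting induces to restrain glucose oxidation, differed most among the 9. Its relative signal was 0.784, 0.560 and 0.695 in the BBMP livers, against 1.16, 1.46 and 1.29 in the corn oil livers. Every BBMP liver was below every corn oil liver. The means were 0.680 ± 0.113 with BBMP and 1.30 ± 0.155 with corn oil (SD, n = 3 each), a log2 difference of -0.95 ± 0.16 (SE; 95% interval -1.33 to -0.56; limma adjusted p = 0.314, unadjusted p = 8.2e-04), which is 0.519 of the corn oil level. Without any 1 array the difference stayed between -1.06 and -0.81, and the adjusted p over all alternatives lay between 0.278 and 0.565. It was -0.68 with normexp background correction.

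Pdk2 (probe A_42_P472375), the kinase isoform present in liver in the fed state as well, had overlapping groups. It had 21.8, 20.2 and 18.9 in BBMP livers and 26.0, 24.9 and 19.3 in corn oil livers. Corn oil 3 was the lowest control and lay below 2 of the BBMP livers. The difference was -0.19 ± 0.14 (SE; 95% interval -0.54 to 0.15; limma adjusted p = 0.643). It was -0.33 without corn oil 3, -0.11 without corn oil 1 and -0.080 with normexp. Whether the differences of Pdk2 and Pdk4 differ from each other was not tested.

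Pc, the enzyme that makes oxaloacetate from pyruvate, was the other gene whose groups were apart, by a small margin. Its brightest probe (A_42_P533312) had 277, 236 and 229.6 in BBMP livers against 282, 312 and 319.6 in corn oil livers. BBMP 1 lay just under corn oil 1, and the other livers were farther apart. Pc averaged 247 ± 25.6 with BBMP and 304 ± 19.7 with corn oil (SD, n = 3 each), a difference of -0.30 ± 0.11 (SE; 95% interval -0.58 to -0.026; limma adjusted p = 0.441, unadjusted p = 0.0364). With normexp it was -0.22 (limma unadjusted p = 0.061), and without any 1 array it lay between -0.39 and -0.25. The unadjusted limma p was under 0.05 in 8 of 16 alternatives. The other Pc probe (A_64_P085641) had 66.9, 60.2 and 53.1 in BBMP livers against 67.5, 66.2 and 75.8 in corn oil livers. On that probe the groups overlapped, and the difference was -0.22 ± 0.12 (limma adjusted p = 0.563).

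Pck1, the hormone-controlled entry step whose promoter is shown above, was close to the controls in BBMP 1 and BBMP 2 and low in BBMP 3. Its relative signal on the brightest probe (A_44_P517258) was 106.9, 116.8 and 65.2 in BBMP livers and 119.7, 115.3 and 110.7 in corn oil livers. The other Pck1 probe (A_44_P414625) followed the same animals, with 46.0, 52.2 and 29.98 in BBMP livers and 53.2, 46.6 and 48.3 in corn oil livers. Over the 6 arrays the log2 values of the probes correlated with r = 0.984 across animals (a description over 6 points). The difference was -0.30 ± 0.22 (SE; 95% interval -0.84 to 0.24; limma adjusted p = 0.646), and -0.043 without BBMP 3. The range among BBMP livers was 1.79-fold, wider than for 89.4% of features, and the range among corn oil livers was 1.08-fold, narrower than for most.

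G6pc1, the last enzyme of the pathway, had its low value in another animal. On probe A_44_P330342 it had 65.99, 88.4 and 95.3 in BBMP livers and 97.8, 94.5 and 107.8 in corn oil livers. BBMP 1 was the lowest and BBMP 3 lay above corn oil 2, so the groups overlapped. The other probe (A_44_P384066), with 5.08, 7.53 and 8.09 in BBMP livers and 8.24, 7.63 and 9.69 in corn oil livers, also had its lowest value in BBMP 1 (r = 0.992 between the probes over 6 arrays). The difference was -0.28 ± 0.16 (SE; 95% interval -0.66 to 0.10; limma adjusted p = 0.554) and -0.12 without BBMP 1 or, with all arrays, -0.16 with normexp. The animals that set the lower means of Pck1 and of G6pc1 were thus different ones.

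Fbp1 and Slc37a4 lay close to 0 difference. Fbp1 (probe A_43_P14969) had 644, 714 and 632 in BBMP livers and 677, 647 and 634 in corn oil livers, a difference of 0.021 ± 0.10 (SE; 95% interval -0.21 to 0.25; limma adjusted p = 0.950). Its other probe (A_44_P171995) read 62.4, 69.0 and 64.5 in BBMP livers and 59.2, 52.8 and 56.8 in corn oil livers. On that probe every BBMP liver was above every corn oil liver, with a difference of 0.22 ± 0.10 (limma adjusted p = 0.501), so the Fbp1 probes disagreed (r = 0.506 over 6 arrays), and with normexp the brightest probe gave -0.13. Slc37a4 (probe A_44_P1023264) had 67.6, 71.3 and 53.99 in BBMP livers and 65.6, 58.5 and 65.6 in corn oil livers, with overlapping groups, a difference of 0.016 ± 0.14 (SE; 95% interval -0.31 to 0.34; limma adjusted p = 0.975) and a sign that turned under 5 alternatives. The other Slc37a4 probe (A_43_P12602) gave 0.12 ± 0.13 (limma adjusted p = 0.766). The intervals of the brightest probes leave a fold between 0.864 and 1.19 for Fbp1 and between 0.807 and 1.27 for Slc37a4.

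**Figure D2:**
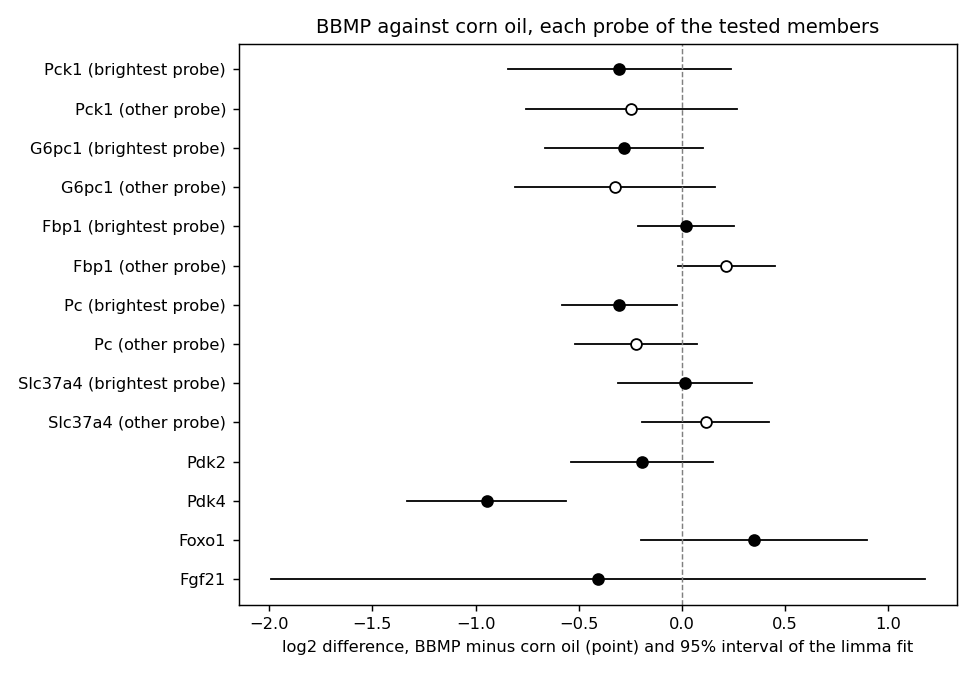
Log2 difference (BBMP minus corn oil; points) and 95% interval of the limma fit (lines) for each probe of the 9 tested genes; filled points are the probe that stands for the gene and open points its other probe. The interval of Pdk4 (-1.33 to -0.56) and that of the filled Pc point (-0.58 to -0.026) lie below 0 and all others cross it, though 0 genes passed after adjustment; Fgf21 has the widest interval.

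Foxo1 (probe A_43_P15648), the insulin-restrained transcription factor, had a mean above that of the controls. Its values were 2.03, 2.33 and 1.51 in BBMP livers and 1.48, 1.21 and 1.92 in corn oil livers. The groups overlapped, and the difference was 0.35 ± 0.23 (SE; 95% interval -0.20 to 0.90; limma adjusted p = 0.602). It was 0.53 without BBMP 3, 0.52 without corn oil 3, 0.21 without BBMP 2 and 0.19 without corn oil 2. Ppargc1a was near the limit of detection: its probe (A_44_P305482) was well above background in 2 of 3 BBMP livers and in 2 of 3 corn oil livers, so it was not tested. Its relative signal was 0.0865, 0.0970 and 0.0155 in BBMP livers and 0.0864, 0.0102 and 0.0377 in corn oil livers, where BBMP 3 and corn oil 2 were not well above background. BBMP 1, BBMP 2 and corn oil 1 thus had nearly the same signal, and the low animals belonged to both groups. The scanner software's own error for this spot reached 72.0% of the signal, against at most 10.1% for any other member's probe.

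Fgf21 (probe A_42_P618217) spread widely among the control animals. It had 3.43, 2.11 and 3.52 in BBMP livers, against 1.51, 10.04 and 3.90 in corn oil livers. Corn oil 2 was the highest and corn oil 1 the lowest of all 6 livers, a 6.64-fold range among controls that 99.7% of features did not reach, while BBMP livers spanned 1.67-fold. The difference was -0.41 ± 0.66 (SE; 95% interval -1.99 to 1.18; limma adjusted p = 0.845). It was 0.28 without corn oil 2, -1.09 without corn oil 1 and -0.17 without BBMP 2, so no direction can be given for Fgf21 from these arrays.

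The other genes of the pathway were taken from 5 lists holding 92 genes, of which 85 were tested. Of these, 46 were higher and 39 lower after BBMP, and 0 passed limma's adjusted p of 0.05. At an unadjusted limma p under 0.05 there were 5 higher and 3 lower, a share below the 10.8% of all features. The groups did not overlap for 3 genes with BBMP higher and 8 with BBMP lower, against 8.25% and 9.60% of all features. For the enzymes shared with glycolysis and the steps of substrate entry, 20 of 21 genes were tested, 10 higher and 10 lower, with a median difference of -0.018. Apart from Gpt, Sds and Got1, all tested genes of this list lay between -0.25 (Gpi) and 0.23 (Fbp2) on the probe that stood for the gene. Gpi interconverts hexose phosphates, and another Gpi probe gave -0.07. The other Fbp2 probe gave 0.08, and another probe of Pck2, chosen after its values were seen, gave 0.27. Got1, an aspartate transaminase chosen like Fbp2 after its values were seen, differed by 0.62 ± 0.42 (SE; limma adjusted p = 0.614) with overlapping groups, and Got2, its mitochondrial counterpart, by 0.027 ± 0.10. Gpt, the alanine transaminase, had 28.0, 35.8 and 21.9 in BBMP livers and 22.5, 14.6 and 13.2 in corn oil livers, with overlap between BBMP 3 and corn oil 1 and a difference of 0.78 ± 0.26 (limma adjusted p = 0.415; another probe gave 0.96). Sds, the serine dehydratase that fasting and glucagon induce, had 5.16, 16.99 and 3.14 in BBMP livers and 2.01, 3.61 and 3.09 in corn oil livers. BBMP 2 stood far above the rest and BBMP 3 lay within the control range (1.21 ± 0.61, SE; limma adjusted p = 0.521; another probe gave 0.75).

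For hormone signalling and transcriptional control, 23 of 24 genes were tested, 12 higher and 11 lower, with a median of 0.023 and 0 past the threshold. Nr0b2, the small heterodimer partner, an orphan receptor that bile acids induce and that represses gluconeogenic genes, had 103.5, 157.3 and 69.8 in BBMP livers against 63.2, 32.2 and 23.98 in corn oil livers. Every BBMP liver was above every control (1.51 ± 0.43, SE; limma adjusted p = 0.404). Foxa2, a forkhead factor of hepatocytes, had 5.35, 2.38 and 5.74 in BBMP livers against 6.13, 15.3 and 16.1 in corn oil livers, without overlap (-1.46 ± 0.49; limma adjusted p = 0.417). Ppargc1b, the relative of Ppargc1a, had 1.09, 1.15 and 0.951 in BBMP livers and 0.503, 0.471 and 0.975 in corn oil livers. There corn oil 3 reached the lowest BBMP liver (0.79 ± 0.29; limma adjusted p = 0.433).

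For pyruvate dehydrogenase, its other kinases, its phosphatases and pyruvate import, 10 of 11 genes were tested, 6 higher and 4 lower, all between -0.19 and 0.19 on the probe that stood for the gene, with a median of 0.039 and 0 past the threshold. Pdk4 therefore lay outside the range of every tested gene of this list. The smallest p values belonged to Mpc1, a subunit of the mitochondrial pyruvate carrier (-0.19 ± 0.09; limma adjusted p = 0.502), to the phosphatase Pdp2 (-0.17 ± 0.10; adjusted p = 0.573) and to Dld, the dihydrolipoamide dehydrogenase (0.19 ± 0.15; adjusted p = 0.658). Mpc1 and Pdp2 were lower in every BBMP liver than in every corn oil liver, while the groups overlapped for Dld. The other kinases, given to complete the family, differed by 0.084 ± 0.14 for Pdk1 and 0.18 ± 0.29 for the dim Pdk3, whose other probe gave 1.05.

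Among fasting-induced liver genes, 19 of 21 were tested, 13 higher and 6 lower, with a median of 0.21 and 0 past the threshold. Pdk4, which fasting also induces, had its lower values in the BBMP livers. Ehhadh, the peroxisomal bifunctional enzyme of fatty acid oxidation, had 42.5, 42.5 and 55.9 in BBMP livers against 30.4, 16.5 and 21.5 in corn oil livers, without overlap (1.07 ± 0.24, SE; limma adjusted p = 0.375). Gadd45b, a stress-response gene, differed by 0.95 ± 0.35 (limma adjusted p = 0.435) with overlapping groups.

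Among genes that feeding and insulin induce, 13 of 15 were tested, 5 higher and 8 lower, with a median of -0.22 and 0 past the threshold. Fasn, the fatty acid synthase, had 1.13, 1.36 and 1.07 in BBMP livers against 1.47, 1.76 and 1.87 in corn oil livers, without overlap (-0.52 ± 0.14, SE; limma adjusted p = 0.401; another probe gave -0.55). Mlxipl, the glucose-sensing factor ChREBP, differed by -0.26 ± 0.13 (limma adjusted p = 0.514), and Pklr, the liver pyruvate kinase, by -0.56 ± 0.29 (limma adjusted p = 0.520), both with overlapping groups.

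**Figure D3:**
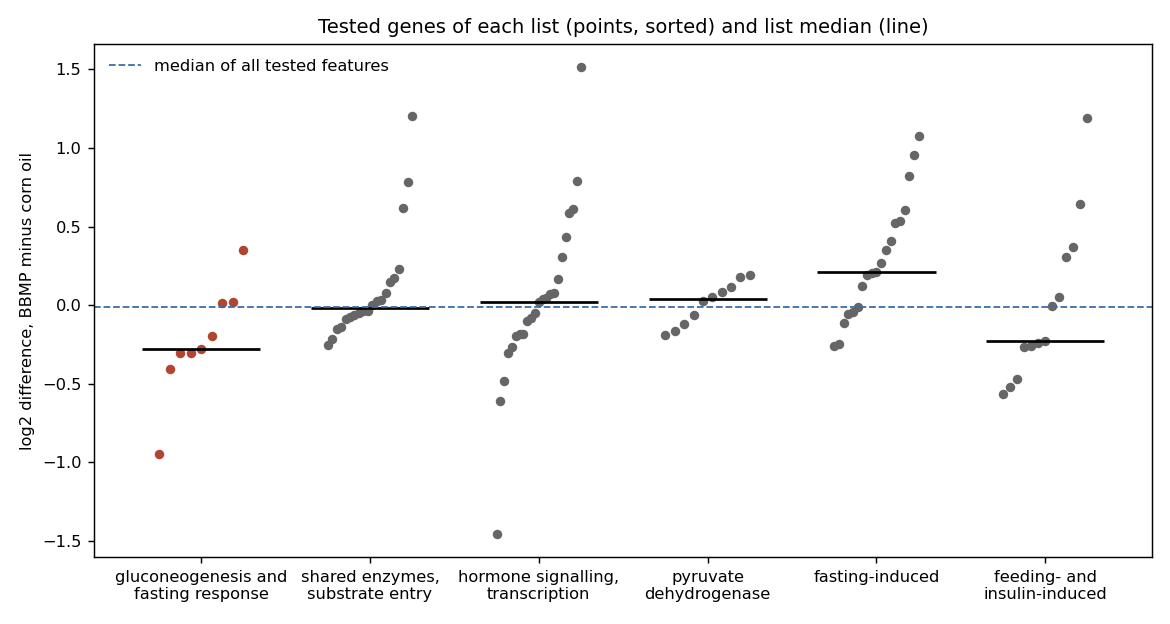
Log2 difference (BBMP minus corn oil) of each tested gene, sorted within its list, for the 9 tested members (red) and the 5 lists of related genes (grey); black lines are list medians and the dashed line is the median of all tested features (-0.013). The members' median is -0.28, the fasting-induced list's is 0.21 and the feeding- and insulin-induced list's is -0.22, and 0 of the plotted genes passed the adjusted threshold.

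Animals of the same group differed widely for some of the lists of related genes and not for others. The range within a group exceeded 2-fold in at least 1 group for 11 of 19 tested fasting-induced genes and for 11 of 23 regulators, against 11.1% of all features. It did so for 4 of 13 feeding- and insulin-induced genes, 3 of 20 shared enzymes and substrate entry genes and 1 of 10 genes of the pyruvate dehydrogenase list. For the 9 tested members this was so for 1, Fgf21. Fasting-induced genes had a median range of 1.99-fold among BBMP livers and 1.99-fold among corn oil livers, where all features had 1.23-fold and 1.25-fold. Every tested member except Fgf21 had ranges below 1.99-fold in both groups. The range was 1.44-fold among BBMP livers and 1.14-fold among corn oil livers for G6pc1, and 1.13-fold and 1.07-fold for Fbp1. It was 1.20-fold and 1.13-fold for Pc, 1.32-fold and 1.12-fold for Slc37a4, and 1.79-fold and 1.08-fold for Pck1. Among BBMP livers G6pc1, Slc37a4, Pck1, Pdk4, Foxo1 and Fgf21 exceeded the 1.23-fold of all features, and Fbp1, Pc and Pdk2 did not. G6pc1, Fbp1, Pc, Slc37a4 and Pck1 each had the wider range among the BBMP livers, as did Pdk4 (1.40-fold against 1.27-fold). The wider range was among the corn oil livers for Pdk2 (1.16-fold in BBMP livers against 1.35-fold), Foxo1 (1.55-fold against 1.59-fold) and Fgf21 (1.67-fold against 6.64-fold).

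The genes whose signal followed a member most closely over the 6 arrays were found among 10707 named genes (10708 for Ppargc1a) as a description, with Pearson's r over 6 points. Pck1 was followed by Agrn (r = 0.996), Clec2dl1 (r = 0.996) and the retinoid X receptor Rxra (r = 0.995), each with its lowest value in BBMP 3. Pdk4 was followed by the vasoactive peptide gene Adm (r = 0.999), Dnajc28 (r = 0.994) and Supt6h (r = 0.994), each lower in every BBMP liver than in every corn oil liver. Ppargc1a was followed by the clock gene Per1 (r = 0.989), the kinase gene Clk4 (r = 0.984) and the fatty acid receptor Ppara (r = 0.982). Per1 had 0.301, 0.324 and 0.132 in BBMP livers and 0.273, 0.122 and 0.187 in corn oil livers, and Ppara had 3.49, 3.38 and 1.08 in BBMP livers and 2.46, 0.787 and 1.85 in corn oil livers. The Per1 probe used here differed by 0.35 between the groups and another Per1 probe by -0.30. BBMP 3 and corn oil 2 were the low animals for Ppargc1a, Per1, Clk4 and Ppara alike, though the Ppargc1a values there were not well above background. All these followers were picked for their likeness over the same 6 arrays, so shared high and low animals follow from the choice. For 109, 204 and 103 genes (1.02%, 1.91% and 0.962% of those compared) r was at least 0.9 to Pck1, Pdk4 and Ppargc1a in that order.

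**Figure D4:**
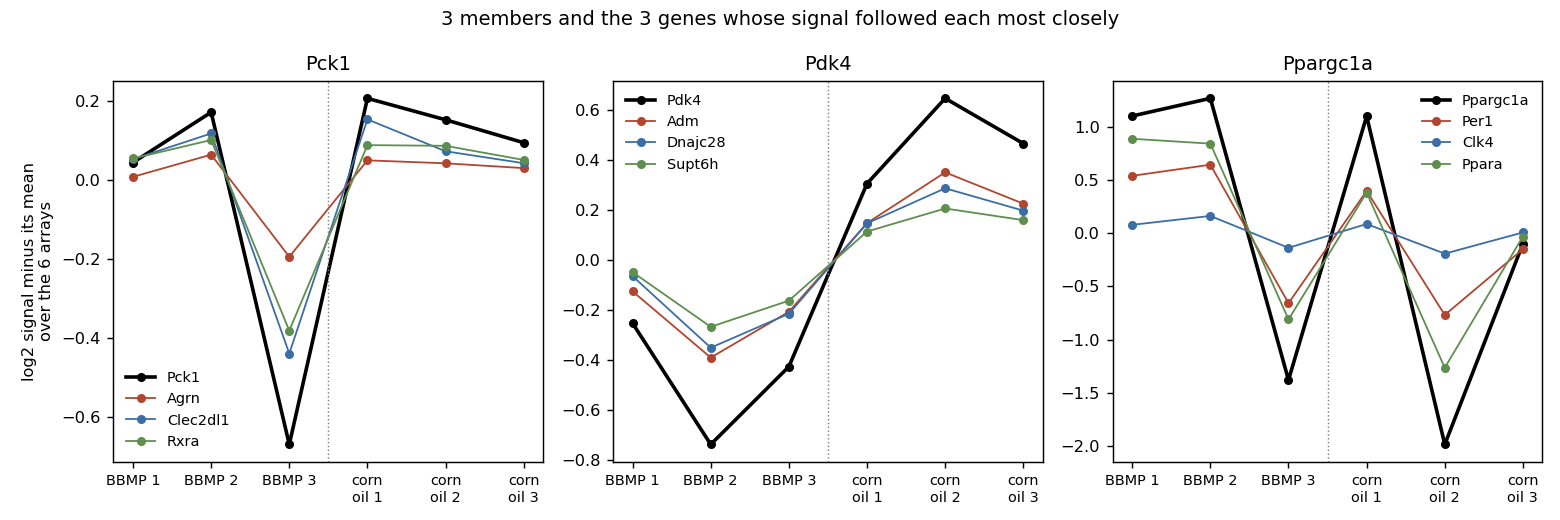
Log2 signal minus its mean over the 6 arrays (vertical axis) in each liver (horizontal axis, BBMP left of the dotted line and corn oil right) for Pck1, Pdk4 and Ppargc1a (black) and for the 3 genes with the highest Pearson r to each (colours); lines only join the points of a gene. Pck1 and its followers dip in BBMP 3, Pdk4 and its followers are lower in all BBMP livers, and Ppargc1a, Per1, Clk4 and Ppara are low in BBMP 3 and corn oil 2.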

How the data were processed

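RNA of 6 livers was hybridised to 1-colour arrays (Agilent design 035170, annotated on rn4) and read with Feature Extraction 10.7.1.1, per the file headers; the submitters' processing notes name version 10.7. The deposited scanner files hold linear intensity that was background-subtracted and spatially detrended within each array, per the file headers, and not scaled from one array to the next. A value table from the authors holds intensity too, each array divided by 1 constant (449 to 568), with column medians of 0.0965 to 0.0998 and no centring of probes; its making is not given in the sources used here.

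Control spots (1319), 84 external spike-in probes and at most 21 outlier spots per array were left out. Probes were named by unversioned accession through the RefSeq gene table of GRCr8 (44.6% of 61573 probes). Log2 intensity minus the log2 of the array's 75th percentile was tested with limma 3.58.1 (R 4.3.3; lmFit and eBayes, two-sided, no covariate, Benjamini-Hochberg over 28112 features). Testing required the scanner's well-above-background flag on every array of at least 1 group, and the brightest probe that met this stood for its gene. P values of other probes come from a fit with every probe. Nothing says that samples were other than separate animals. The genes named are the members, from each other list the 3 with the lowest p and the 3 closest followers of Pck1, Pdk4 and Ppargc1a; others are marked, and 1 gene that this rule names is not reported here. The members and lists were chosen with earlier results of these data known. The limma fit was tested on simulated data. Tables used Python 3.11.15 and pandas 2.3.3. The number of arrays limits the precision.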

Additional observations from a re-analysis of the deposited data

How the results depend on the processing

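Under all 16 alternatives 0 of the members and 0 of the related genes passed limma's adjusted threshold. The number of features that passed, 2, became 0 with normexp, 0 with the filter on all 6 arrays, 1 with no filter and 0 with the replicate block. It lay between 0 (without corn oil 3) and 4 (without corn oil 2) when 1 array was left out. The cause of these changes was not tested. The median difference of the members was -0.28, -0.16 with normexp and between -0.27 and -0.14 when 1 array was left out (-0.14 without BBMP 3 or corn oil 2). Signs turned for members near 0 or resting on 1 animal: Fbp1 (-0.13 with normexp; -0.033 to 0.055 without 1 array), Slc37a4 (-0.053 with normexp, -0.029 with quantile scaling; -0.064 to 0.14 without 1 array) and Fgf21 (-1.09 to 0.28 without 1 array). The replicate block left 0 members past the threshold, with a limma adjusted p of 0.408 for Pdk4. The deviations of BBMP and corn oil animals that share a number correlated at 0.0894, 0.0159 and 0.0719. For animals with different numbers the correlations lay between -0.104 and 0.0329. With so few animals these values cannot decide whether the numbers pair animals, and the labels do not state a pairing. Normexp used the median spot signal, the column in the files. Slide could not be a block, since each slide held 1 group. Only Ppargc1a among the members missed the well-above-background flag on any array. The background correction still moved other members: with normexp the difference of Pdk4 was -0.68 instead of -0.95. For Pck1 it was -0.34 instead of -0.30.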

Other observations

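Of the listed genes that glucocorticoids are known to induce, 5 were chosen after their values were seen, and they varied widely between animals. Tsc22d3, the leucine zipper protein GILZ, had relative signals of 9.26, 13.8 and 3.02 in BBMP livers and 7.21, 3.08 and 5.67 in corn oil livers. Fkbp5, a co-chaperone of the glucocorticoid receptor, had 7.40, 22.7 and 3.21 in BBMP livers and 3.19, 2.58 and 11.8 in corn oil livers. Lpin1, a phosphatidate phosphatase, had 0.652, 0.871 and 0.145 in BBMP livers and 0.228, 0.169 and 0.908 in corn oil livers. BBMP 2 was the highest and BBMP 3 the lowest BBMP liver for these 3 genes. The same held for Tat, the tyrosine aminotransferase, which had 3.88, 10.36 and 3.22 in BBMP livers and 3.83, 5.44 and 3.57 in corn oil livers. It also held for Ddit4, a stress-induced inhibitor of mTOR signalling, which had 1.98, 2.21 and 0.603 in BBMP livers and 1.12, 1.21 and 0.660 in corn oil livers. The controls had no common order: corn oil 2 was the lowest control for Tsc22d3, Fkbp5 and Lpin1 and the highest for Tat and Ddit4. The order of the BBMP livers was not common to all fasting-induced genes either. Igfbp1 had it too, with 14.5, 19.4 and 8.08 in BBMP livers. BBMP 2 was instead the lowest BBMP liver for Angptl4 (99.1, 78.1 and 93.5) and for the member Pdk4 (0.784, 0.560 and 0.695).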
